A study of Mus musculus with 6 samples.

Results

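Heparan sulfate sulfotransferases were examined in clonal MIN6 cells, a mouse insulinoma line that serves as a model of β cells. The members are 10 named genes, *Hs3st1*, *Hs3st2*, *Hs3st3a1*, *Hs3st3b1*, *Hs3st4*, *Hs3st5*, *Hs3st6*, *Hs6st1*, *Hs6st2* and *Ndst1*, out of 53808 mouse genes listed for each clone. They were matched by Ensembl identifier through GENCODE M21, and the family was chosen by the measured TPM of *Hs3st3b1*, which is higher in every *Snd1* KO clone. The difference between the groups is therefore given for the members as a description, with no test. Messenger RNA was sequenced from 3 Control clones, in which Cas9 was directed to intron 2 of *Snd1*, and 3 *Snd1* KO clones, in which it was directed to exon 2. The paper lists 2 gRNAs for exon 2. It aligns *Snd1* KO 1 and 2 with the first and *Snd1* KO 3 with the second, so for *Snd1* KO 3 gRNA and clone cannot be told apart. All 6 clones came from MIN6 cells that express Cas9, received a gRNA by lentivirus, were selected with puromycin and were grown from single cells. Each library is thus 1 clone, and a difference between clones that arose by chance during cloning cannot be told apart from an effect of the gRNA. The question of the comparison is which genes depend on SND1, a coregulator that binds the β cell transcription factor PDX1.

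Heparan sulfate is a long sugar chain that is built in the Golgi on core proteins such as syndecans and glypicans, and it binds growth factors and other ligands at the cell surface. N-deacetylase/N-sulfotransferases such as the product of *Ndst1* act first and place sulfate on the amino group of glucosamine. Sulfate is then added at the 2-O and 6-O positions, the latter by the *Hs6st* enzymes, and last and most rarely at the 3-O position by the *Hs3st* enzymes. All of these enzymes take sulfate from the donor PAPS. In islets, heparan sulfate is abundant in β cells and is known for a role in their survival.

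Expression was read as TPM, the reads on a gene divided by its length and scaled to the same sum in every library. The recovered reads on genes numbered between 23700739 and 30454748 per clone, and 3 reads per clone were set as the limit of detection, called the floor here. The totals are above the reads per library that the study's methods give, and whether both mates of a pair were counted is not given in the sources used here. If they were, fewer independent fragments stand behind each read number and the floor. The targeted gene *Snd1* had 113, 119 and 112 TPM across Control clones 1 to 3, against 14.8, 57.1 and 19.9 TPM across *Snd1* KO clones 1 to 3. *Snd1* KO 2 thus kept 49.8% of the Control mean as mRNA, which does not give the level of protein. The study picked the KO clones by immunoblot for SND1. It reports indels in exon 2 that disrupt the protein, with a major deletion in *Snd1* KO 2. The β cell markers *Ins2*, *Iapp*, *Pdx1*, *Nkx6-1*, *Mafa* and *Slc2a2* were present in every clone. Of 7 acinar and duct markers 5 were at or under the floor in all clones, among them *Ptf1a*, *Cpa1* and *Krt19*, and the sum of this list was 0.993 to 1.35 TPM in Control, against 1.22 to 1.98 TPM in *Snd1* KO clones. The sum of 9 stromal, endothelial and immune markers was 4.11 to 22.9 TPM in Control, against 2.54 to 3.07 TPM in *Snd1* KO clones. Most of it in Control was *Pdgfra*, with 17.0, 7.28 and 2.19 TPM there and at most 0.0987 TPM in *Snd1* KO clones, and the part of this difference in the results was not tested. Of 6 markers of other islet cells, *Hhex* had no reads in any clone, and the sum, which is nearly all *Gcg*, was 174 to 314 TPM in Control, against 55.9 to 1102 TPM in *Snd1* KO clones. For 6 of the 7 members that were above the filter used here, all but *Hs3st3b1*, Control 3 lay nearer in TPM to a *Snd1* KO clone than to either of the other Control clones, and values without it are given where it matters.

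The 2 neighbouring paralogs on chromosome 11, *Hs3st3b1* and *Hs3st3a1*, are followed at their locus here, so the bases before their start sites are shown. The sequences are from RefSeq on GRCm38.p6 and run 5′ to 3′ along the strand of each gene, from 250 to 11 bases before the start. *Hs3st3b1* lies on the minus strand, with the printed bases at chr11:63922295-63922534, and *Hs3st3a1* on the plus strand, with the printed bases at chr11:64435082-64435321. Capitals mark matches on either strand to the CCAAT box motif, to the GC box motif GGGCGG, to the CRE-like motif TGACGT and to the E-box motif CACGTG. The TATA box motif TATAAA was searched as well.
Hs3st3b1: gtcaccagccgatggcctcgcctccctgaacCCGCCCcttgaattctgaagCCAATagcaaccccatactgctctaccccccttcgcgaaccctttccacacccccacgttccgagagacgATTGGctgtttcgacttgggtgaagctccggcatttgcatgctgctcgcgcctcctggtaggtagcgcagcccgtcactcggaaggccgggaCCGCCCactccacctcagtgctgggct
Hs3st3a1: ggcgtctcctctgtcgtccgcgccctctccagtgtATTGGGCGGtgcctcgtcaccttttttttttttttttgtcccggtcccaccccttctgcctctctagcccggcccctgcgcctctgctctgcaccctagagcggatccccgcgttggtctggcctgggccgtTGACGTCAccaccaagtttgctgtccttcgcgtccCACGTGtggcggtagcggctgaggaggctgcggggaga
In *Hs3st3b1* CCAAT matched 2 times, beginning 199 and 129 bases before the start, and GGGCGG matched 2 times, beginning 219 and 37 bases before it. In *Hs3st3a1* CCAAT and GGGCGG matched 1 time each and overlap each other at 215 and 212 bases before the start. It also held TGACGT on both strands as 2 overlapping matches at 83 and 81 bases, and CACGTG at 48 bases. TATAAA is in neither window. Over all 32851 RefSeq windows of the same 240 bases, 33.0% held CCAAT, 31.3% GGGCGG, 12.1% TATAAA, 6.09% TGACGT and 5.69% CACGTG. The GC content was 62.5% for *Hs3st3b1* and 63.8% for *Hs3st3a1*, compared with a median of 52.1% over all windows, and the windows held 17 and 20 CG dinucleotides against a median of 5. An entry was found for 8 of the 10 members, and *Hs3st6* and *Ndst1* had none. A match of letters is a description and does not show that a factor binds there.

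*Hs3st3b1* (ENSMUSG00000070407, chromosome 11 from 63885792 to 63922290, minus strand) encodes a 3-O-sulfotransferase whose product serves as a receptor for glycoprotein D of herpes simplex virus. It had 1.56, 2.10 and 1.48 TPM across Control clones 1 to 3, against 11.3, 11.5 and 6.46 TPM across *Snd1* KO clones 1 to 3. These values rest on 44, 56 and 36 reads in Control, against 286, 280 and 169 reads in *Snd1* KO clones. Every *Snd1* KO clone was above every Control clone, which is how the gene was chosen, and the lowest *Snd1* KO clone had 6.46 TPM against 2.10 TPM in the highest Control clone. The Control mean was 1.71 ± 0.334 TPM and the *Snd1* KO mean 9.74 ± 2.84 TPM (SD, n = 3 each), a ratio of 5.68. On the log2(TPM + 1) scale, which understates the change of a gene with low TPM, the log2 fold change was 1.95 with a standard error of 0.25. Of all 17823 genes that averaged 0.5 TPM or more, 9.69% were likewise higher in every *Snd1* KO clone and 4.03% were lower in every one.

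**Figure D1:**
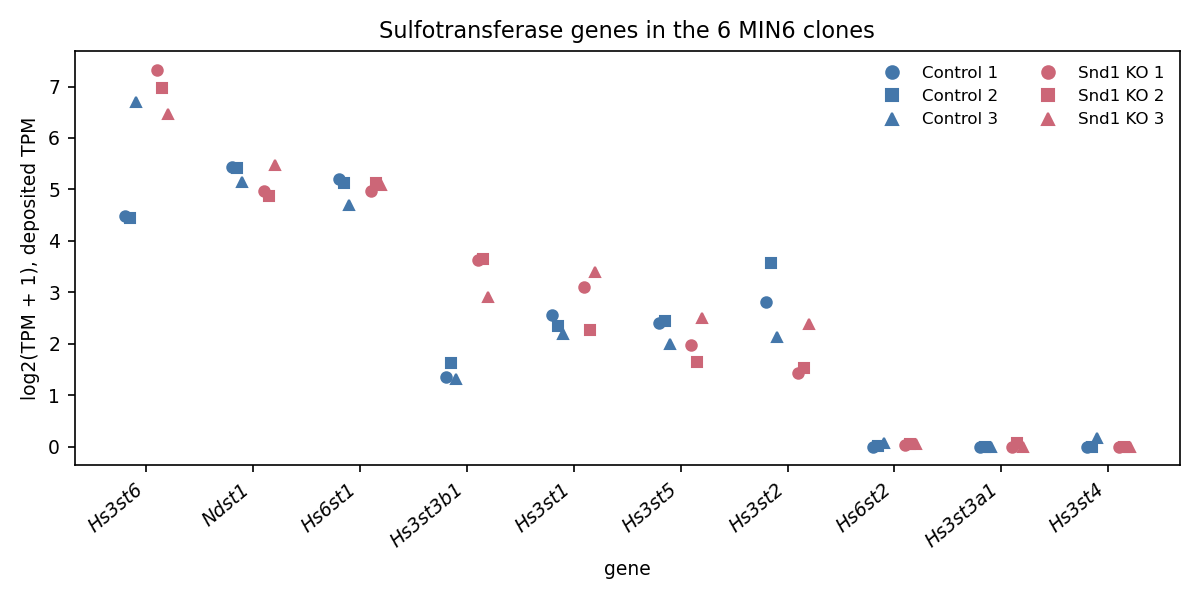
log2(TPM + 1) of each of the 10 genes (x axis) in each clone, from the deposited TPM. Circles, squares and triangles are clones 1, 2 and 3, in blue for Control and red for *Snd1* KO. *Hs3st3b1* is the gene with fully separate groups, and *Hs6st2*, *Hs3st3a1* and *Hs3st4* lie at or near 0 in all clones.

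The difference at *Hs3st3b1* was not seen at *Cox10*, and the other genes beside it had too few reads to show one. *Cox10*, which encodes an enzyme of heme A synthesis and lies 40.3 kb beyond the start site of *Hs3st3b1*, had 31.2, 33.8 and 30.0 TPM in Control, against 30.0, 33.7 and 32.3 TPM in *Snd1* KO clones. Its groups overlapped, with a log2 fold change of 0.014. *Hs3st3a1* (ENSMUSG00000047759), the paralog at a distance of 513 kb on the opposite strand, had 0 reads in 5 clones and 1 read in *Snd1* KO 2, under the floor everywhere. *F930015N05Rik*, which overlaps the start of *Hs3st3a1* on the minus strand, had 0 reads in every clone. On the other side, *Pmp22*, a myelin protein gene at 726 kb, had 0 to 5 reads per clone, *Tekt3* had 0 reads and *Cdrt4* had at most 1 read. Of 4812 windows of 100 bases in the *Hs3st3b1* transcript, 302 (6.28%) occur without a mismatch in *Hs3st3a1*, and no other pair of members shares such a window. Reads in that stretch can fit both genes, and how they were counted is not given in the sources used here. The level of *Hs3st3a1* was not detectable at this depth.

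**Figure D2:**
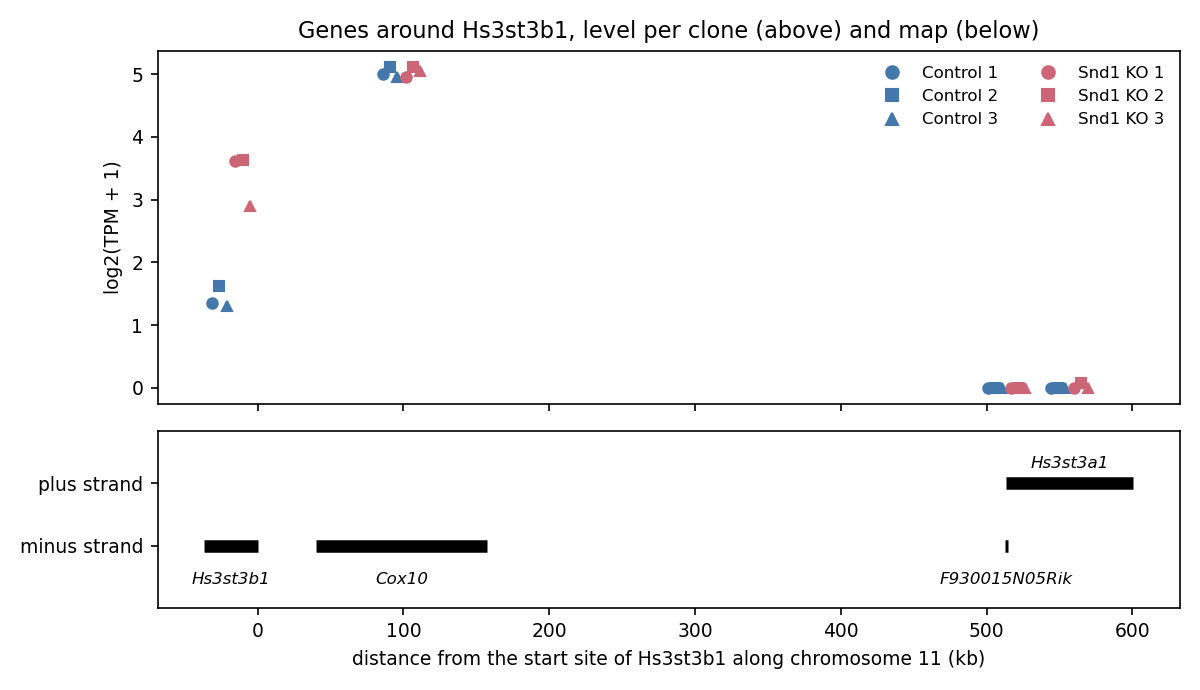
Genes on chromosome 11 from *Hs3st3b1* to *Hs3st3a1*. The upper panel plots log2(TPM + 1) per clone (blue Control, red *Snd1* KO) above each gene, and the lower panel maps the genes by strand in kb from the start site. *Hs3st3b1* differs between the groups, *Cox10* stays near 5 in all clones and *Hs3st3a1* is near 0.

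*Hs3st6* (ENSMUSG00000039628, chromosome 17 from 24752988 to 24758684, plus strand), which encodes another 3-O-sulfotransferase, had the highest per-length level of the 3-O genes in every clone, as given further on. It had 21.5, 20.7 and 103 TPM across Control clones 1 to 3, from 150, 137 and 622 reads, while it reached 160, 125 and 87.3 TPM across *Snd1* KO clones 1 to 3, from 1006, 756 and 567 reads. Control 1 and Control 2 were low, whereas Control 3 was above *Snd1* KO 3, so the groups overlapped. The means were 48.4 ± 47.4 TPM in Control, against 124 ± 36.3 TPM in the *Snd1* KO group (SD, n = 3 each), with a log2 fold change of 1.71 (standard error 0.62). Control 3 moved this value most, to 2.46 without that clone. The lowest value with 1 clone left out was 1.33, without Control 2.

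*Hs3st1* (ENSMUSG00000051022, chromosome 5 from 39613935 to 39755475, minus strand) encodes the enzyme that forms the antithrombin-binding site of heparan sulfate. It had 4.87, 4.06 and 3.55 TPM in Control, against 7.56, 3.82 and 9.53 TPM in *Snd1* KO clones. *Snd1* KO 1 and 3 were above all Control clones, and *Snd1* KO 2 lay among them. The log2 fold change was 0.56 (standard error 0.31), and it lay between 0.32 without *Snd1* KO 3 and 0.89 without *Snd1* KO 2. *Hs3st5* (ENSMUSG00000044499, chromosome 10 from 36506814 to 36834397, plus strand), which also encodes a 3-O-sulfotransferase, had 4.27, 4.42 and 2.97 TPM in Control, against 2.95, 2.12 and 4.66 TPM in *Snd1* KO clones. *Snd1* KO 1 and 2 were below every Control clone, *Snd1* KO 1 only just, and *Snd1* KO 3 was above every one. The groups thus overlapped through *Snd1* KO 3 alone, with a log2 fold change of −0.23 (standard error 0.28). Leaving out *Snd1* KO 3 gave −0.46, and leaving out *Snd1* KO 2 gave −0.032.

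*Hs3st2* (ENSMUSG00000046321, chromosome 7 from 121391859 to 121501770, plus strand), a 3-O-sulfotransferase gene known for expression in brain, differed in the opposite direction. It had 6.01, 10.9 and 3.36 TPM across Control clones 1 to 3, against 1.70, 1.88 and 4.22 TPM across *Snd1* KO clones 1 to 3, from 118, 204 and 57 and from 30, 32 and 77 reads. *Snd1* KO 3 was above Control 3, so the groups overlapped, and without Control 3 every *Snd1* KO clone was lower. The means were 6.77 ± 3.85 and 2.60 ± 1.41 TPM (SD, n = 3 each), with a log2 fold change of −1.06 (standard error 0.43) that lay between −1.41 without Control 3 and −0.69 without Control 2. An antisense gene, *4933432K03Rik*, overlaps *Hs3st2* and held 1.30 to 3.14 TPM, and without strand information reads of the 2 cannot be told apart where their exons meet. *Hs3st4* had 2 reads in Control 3 and 0 in the other clones, under the floor in all of them.

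**Figure D3:**
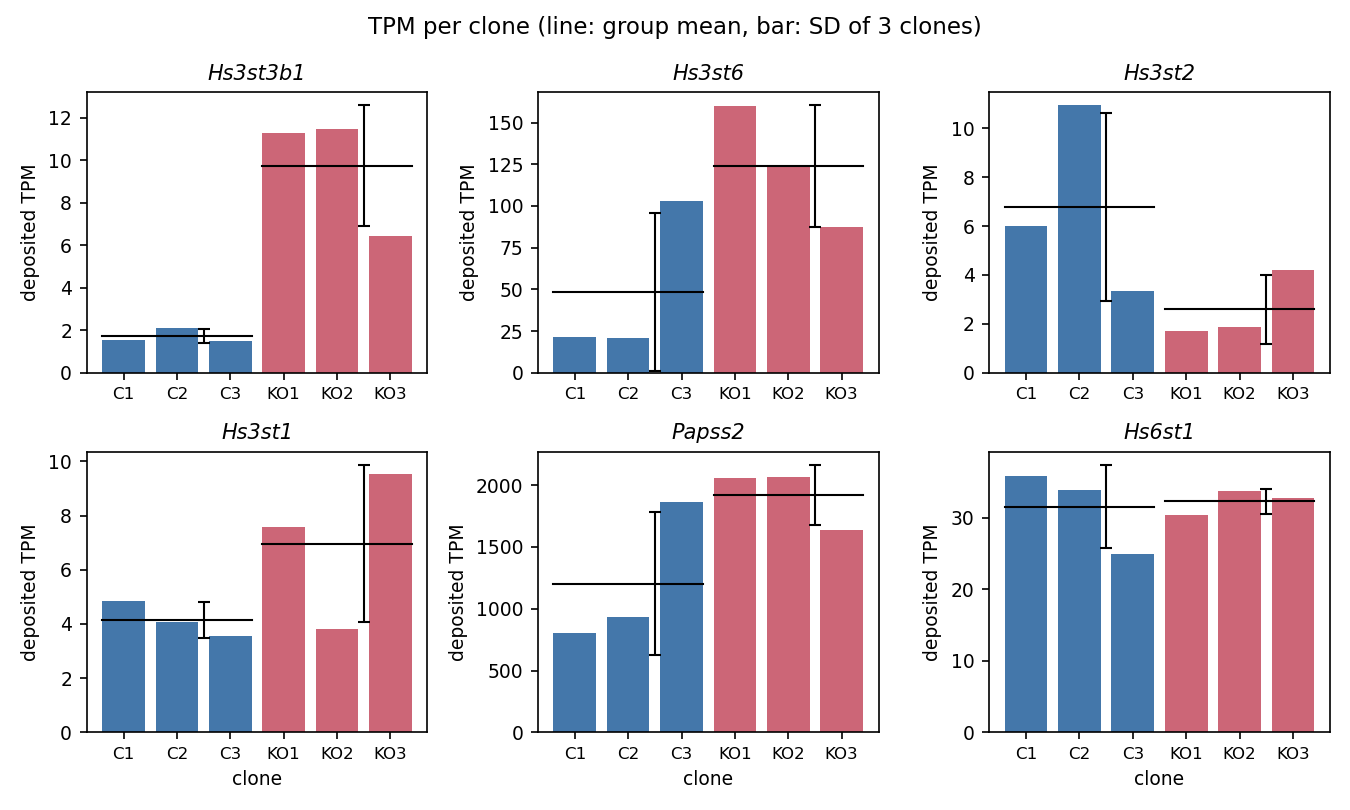
Deposited TPM per clone for 5 sulfotransferase genes and *Papss2*, with bars from 0 for Control clones C1 to C3 (blue) and *Snd1* KO clones KO1 to KO3 (red). Horizontal lines are group means and vertical lines their SD over 3 clones. Control 3 stands with the *Snd1* KO clones for *Hs3st6* and *Papss2* but with Control 1 and 2 for *Hs3st3b1*.

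*Hs6st1* (ENSMUSG00000045216, chromosome 1 from 36068400 to 36106446, plus strand), a 6-O-sulfotransferase gene, had 35.9, 33.8 and 24.9 TPM in Control, against 30.4, 33.7 and 32.8 TPM in *Snd1* KO clones. The *Snd1* KO values lay within the range of Control, and the log2 fold change was 0.049 (standard error 0.16). It was −0.11 without Control 3 and −0.052 with clones weighted by quality, so its sign is not fixed. *Hs6st2*, a second 6-O-sulfotransferase gene, had 0 to 3 reads per clone, at or under the floor in all of them. *Ndst1* (ENSMUSG00000054008) had 42.1, 41.9 and 34.5 TPM in Control, against 30.4, 28.4 and 43.5 TPM in *Snd1* KO clones. *Snd1* KO 3 was the highest clone of all and *Snd1* KO 2 the lowest, and the log2 fold change was −0.23 (standard error 0.18), or −0.41 without *Snd1* KO 3 and −0.11 without *Snd1* KO 2. The ribosomal protein gene *Rps14*, with 373 to 774 TPM, overlaps *Ndst1* on the opposite strand, so reads at that end may be shared between them.

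Of the 10 members, 7 passed the filter of a mean of at least 0.5 TPM, and *Hs3st3a1*, *Hs3st4* and *Hs6st2* did not. Of these 7, 4 had a log2 fold change above 0 and 3 below 0, with a range from −1.06 to 1.95 and a median of 0.049, beside a median of 0.044 over all genes tested. *Hs3st3b1* alone had groups that do not overlap, which is how it was chosen, beside 13.7% of all genes in either direction. Without Control 3, *Hs3st3b1* and *Hs3st6* were higher and *Hs3st2* and *Hs6st1* lower in every *Snd1* KO clone, a pattern that 17.2% of all genes then had in the upward and 17.8% in the downward direction. Without *Snd1* KO 1, which also stands apart, only *Hs3st3b1* of the 7 was separate, where 22.6% of all genes were higher and 10.9% lower.

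Levels of different genes were compared after the recovered reads were divided by the length of each gene with every exonic base counted once, and rescaled to one sum for all clones. On this per-length TPM scale *Hs3st6* had 12.8, 12.4 and 62.2 in Control and 97.0, 74.9 and 52.7 in *Snd1* KO clones, which in the *Snd1* KO clones was above every other member. *Hs6st1* had a level of 26.6 ± 4.81 in Control and 27.5 ± 1.34 in *Snd1* KO clones, and *Ndst1* of 19.4 ± 2.05 and 16.8 ± 4.05 (SD, n = 3 each). In Control clones the order by mean was *Hs3st6*, *Hs6st1*, *Ndst1*, *Hs3st5*, *Hs3st1*, *Hs3st2* and *Hs3st3b1*. At the lengths taken, the place of *Hs3st6* rests on Control 3, since in Control 1 and 2 it lay below *Hs6st1* (30.2 and 28.6) and *Ndst1* (20.5 in both). The clones of *Hs3st5* overlapped with those of *Hs3st1*, and those of *Hs3st1* with *Hs3st2*, whereas *Hs3st3b1* (1.15 ± 0.222) lay below all 6 others. The reads of *Hs3st6* and *Ndst1*, and with them their per-length levels, are the fewest that fit their TPM, because the lengths behind these were found by search (1219 and 6070 bases, below the exonic lengths of 1358 and 8279 bases). A longer length would raise these levels, so the order of *Hs3st6*, *Hs6st1* and *Ndst1* in Control clones is not fixed. This holds within Control 1 and 2 as well. In deposited TPM *Ndst1* had a higher Control mean than *Hs6st1* (39.5 against 31.5). In *Snd1* KO clones *Hs3st3b1* had a level of 6.55 ± 1.91 and ranked 5 of 10, where it overlapped with *Hs3st1* above it and *Hs3st5* below it.

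The 3-O genes together had a per-length level of 32.5, 35.3 and 76.0 in Control clones 1 to 3 and 122, 93.1 and 82.0 in *Snd1* KO clones 1 to 3. Control 1 and 2 were low and Control 3 was close to *Snd1* KO 3. Whether these groups overlap turns on the lengths taken for the genes, since in deposited TPM the sum was higher in Control 3 than in *Snd1* KO 3. *Hs3st6* made up 39.5%, 35.1% and 81.9% of this sum in Control and 79.5%, 80.5% and 64.3% in *Snd1* KO clones. *Hs3st3b1* made up 3.20%, 3.97% and 1.31% in Control and 6.25%, 8.24% and 5.30% in *Snd1* KO clones, so that the gene that was higher in every *Snd1* KO clone was still a small part of the 3-O transcripts. *Hs3st2* went the other way, from 13.8%, 23.3% and 3.34% to 1.06%, 1.52% and 3.89%. Among 6-O genes *Hs6st1* held 84.8% to 93.6% of the sum in Control and 79.7% to 93.4% in *Snd1* KO clones, the rest being nearly all *Hs6st3*. Among N-sulfotransferase genes *Ndst1* held 48.1% to 51.6% and 39.9% to 51.1%, beside *Ndst2* with 42.8% to 49.5% and 46.1% to 58.3%. The shares of *Hs3st6* and *Ndst1* are likewise lower limits with respect to the length found by search.

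**Figure D4:**
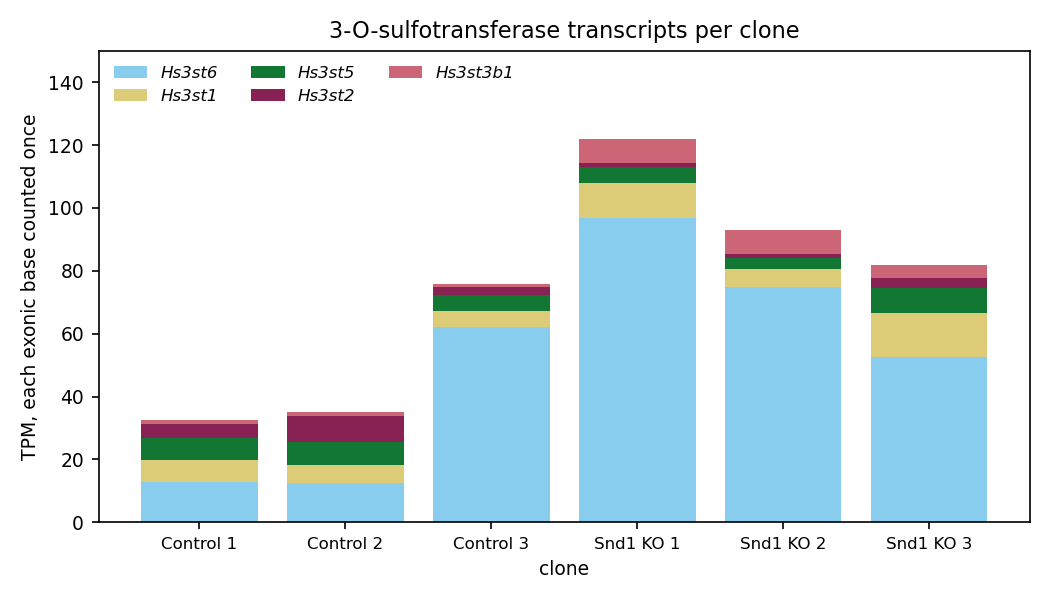
Stacked per-length TPM of the 5 detected 3-O-sulfotransferase genes in each clone, with each exonic base counted once. *Hs3st3a1* and *Hs3st4* are too low to be seen. The sum is lowest in Control 1 and 2 (32.5 and 35.3) and highest in *Snd1* KO 1 (122), and *Hs3st6* is the largest part in every clone.

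The other genes of heparan sulfate metabolism were followed in 7 lists of 94 genes, of which 74 passed the filter and were tested in the fit over all genes (limma with Benjamini-Hochberg adjustment). None passed an adjusted p-value under 0.05 with a change of at least 2-fold, in either direction, beside 1 gene or 0.00561% of all genes tested. Unadjusted p-values under 0.05 were found for 8 of 74, compared with 1419 of 17823 genes. Voom on the recovered reads also called 0 of 74. Their median log2 fold change was −0.072, with 27 above 0 and 47 below 0. In 1 gene of the 74 (1.35%) every *Snd1* KO clone was higher and in 7 (9.46%) lower, beside 9.69% and 4.03% of all genes. These counts turn on single clones, being 4 higher and 19 lower without Control 3 (17.2% and 17.8% of all genes), and 12 higher and 11 lower without *Snd1* KO 1 (22.6% and 10.9% of all genes).

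Of the other modifying enzymes, 6 of 8 were tested and 0 passed. *Hs2st1*, the 2-O-sulfotransferase, had 42.8 to 49.5 TPM in Control, against 44.9 to 55.1 TPM in *Snd1* KO clones. *Glce*, the epimerase that acts before 2-O-sulfation, had 35.4 to 57.9 and 36.2 to 57.3 TPM. *Sulf2*, which removes 6-O-sulfate outside the cell, had 38.5, 38.3 and 21.4 TPM in Control, against 21.4, 17.8 and 41.5 TPM in *Snd1* KO clones. The groups overlapped for all 3 genes, with log2 fold changes of 0.066, 0.0035 and −0.32.

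The list for the sulfate donor and sugar nucleotides had 11 of 11 genes tested and 0 past the limits. *Papss2*, which encodes an enzyme that makes PAPS, had 806, 937 and 1863 TPM across Control clones 1 to 3, against 2054, 2065 and 1638 TPM across *Snd1* KO clones 1 to 3. As for *Hs3st6*, Control 1 and 2 were low and Control 3 was above *Snd1* KO 3. The log2 fold change was 0.77 (standard error 0.32, adjusted p = 0.607, limma). *Bpnt1*, which degrades the by-product of PAPS, had 168, 207 and 266 TPM and 223, 382 and 382 TPM, with a log2 fold change of 0.60 and overlapping groups (adjusted p = 0.607, limma). *Impad1*, a Golgi enzyme with the same kind of substrate, had 284 ± 74.0 and 304 ± 67.7 TPM (SD, n = 3 each). *Slc35d2*, a sugar nucleotide transporter gene, had 7.65, 6.81 and 5.76 TPM in Control, against 3.36, 3.68 and 4.06 TPM in *Snd1* KO clones. All 3 *Snd1* KO clones were lower, by −0.72 on the log2 scale (standard error 0.17), which did not pass (adjusted p = 0.556, limma).

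For assembly of the linkage region and the chain, 12 of 12 genes were tested and 0 passed. *Ext2*, a subunit of the chain polymerase, had 38.2, 40.3 and 39.5 TPM in Control, against 28.55, 30.47 and 35.03 TPM in *Snd1* KO clones, with separate groups and a log2 fold change of −0.32 (adjusted p = 0.589, limma). *B3gat3* and *Fam20b*, which act on the linkage region, had 133 ± 14.7 and 98.2 ± 18.7 TPM in Control, against 122 ± 14.7 and 93.0 ± 12.4 TPM in the *Snd1* KO group (SD, n = 3 each). Of 14 core protein genes 12 were tested and 0 passed, and none had separate groups. The highest in deposited TPM over all 6 clones were *Sdc2*, with 75.5 ± 19.8 and 74.4 ± 9.69 TPM, *Gpc1*, with 50.2 ± 3.95 and 43.7 ± 2.62 TPM, and *Gpc4*, with 43.2 ± 9.16 and 40.6 ± 14.3 TPM (SD, n = 3 each).

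Of 10 genes for breakdown of heparan sulfate 9 were tested and 0 passed. *Arsg*, the lysosomal 3-O-sulfatase, removes the group that the *Hs3st* enzymes add. It had 8.75, 7.91 and 5.81 TPM in Control, against 4.71, 3.92 and 4.97 TPM in *Snd1* KO clones. Every *Snd1* KO clone was lower, with a log2 fold change of −0.61 (adjusted p = 0.581, limma). *Ids* and *Naglu*, 2 further lysosomal enzymes, overlapped between groups, with log2 fold changes of 0.22 and −0.12.

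Chondroitin and dermatan sulfate enzymes, which share precursors with heparan sulfate, had 10 of 16 genes tested and 0 past the limits. *Chpf*, for chondroitin polymerisation, had 47.8, 46.7 and 40.5 TPM in Control, against 34.54, 30.23 and 34.99 TPM in *Snd1* KO clones, with separate groups and a log2 fold change of −0.42 (adjusted p = 0.568, limma). The sulfotransferase genes *Chst11* and *Chst12* had log2 fold changes of −0.19 and −0.0048, and their groups overlapped.

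Of 23 ligands and receptors that bind heparan sulfate 14 were tested and 0 passed. *Fgf9*, a growth factor gene, had 18.0, 19.9 and 7.53 TPM in Control, against 6.19, 1.89 and 0.308 TPM in *Snd1* KO clones, the log2 fold change being −2.32 (standard error 0.65, adjusted p = 0.568, limma). *Fgf1* had 17.5, 12.2 and 9.23 TPM and 8.94, 1.49 and 3.31 TPM, the log2 fold change being −1.52 (standard error 0.51, adjusted p = 0.585). In both genes the lowest Control clone, Control 3, was close to the highest *Snd1* KO clone, *Snd1* KO 1. With clones weighted by quality both genes were called (adjusted p = 0.0179 and 0.0226, limma), a setting in which 5.02% of all genes were called. *Robo2*, a receptor for Slit proteins, had 12.9, 16.1 and 10.2 TPM in Control, against 20.2, 17.2 and 17.3 TPM in *Snd1* KO clones, with a log2 fold change of 0.47 (adjusted p = 0.607). The groups of *Vegfa*, *Ptprf* and *Hbegf* overlapped, with log2 fold changes of −0.13, −0.38 and 0.26.

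**Figure D5:**
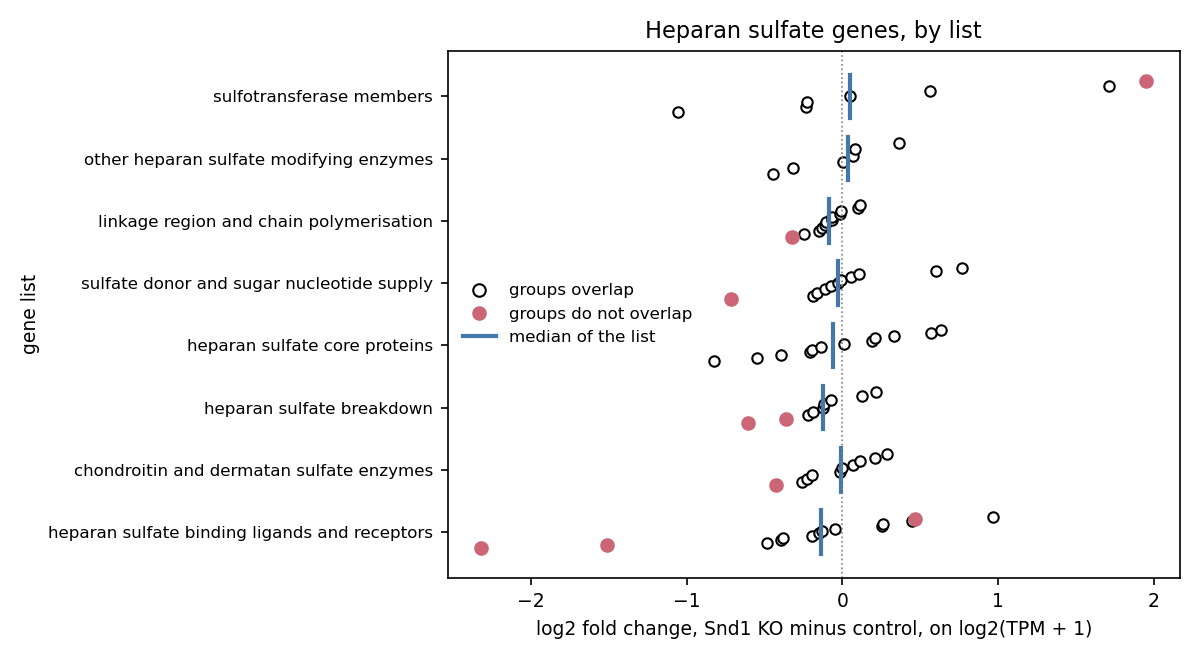
log2 fold change (*Snd1* KO minus Control, log2(TPM + 1) scale) of each tested gene, by list. Red points are genes whose Control and *Snd1* KO clones do not overlap, open points overlap, and blue bars are list medians. The members span −1.06 to 1.95, and *Hs3st3b1* is the highest point.

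The genes with levels most like those of *Hs3st3b1* over the 6 clones were looked up among 9923 named protein-coding genes that averaged 5 TPM or more. By Pearson correlation of log2(TPM + 1) they were *Lrp5* (0.988), *Mtif2* (0.988), *Depdc7* (0.986), *Ddx46* (0.985) and *Ski* (0.985). The 6 points share their libraries and fall into the groups by which *Hs3st3b1* was chosen, so the values are a description. *Lrp5*, a coreceptor for Wnt proteins, had 9.55, 9.70 and 9.06 TPM in Control, against 20.1, 17.6 and 15.7 TPM in *Snd1* KO clones. *Depdc7* had 17.3, 16.6 and 14.7 TPM and 28.9, 30.2 and 23.6 TPM. *Mtif2*, *Ddx46* and *Ski* differed less, with log2 fold changes of 0.20, 0.32 and 0.34.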

How the data were processed

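The deposited TPM values of messenger RNA from 3 Control and 3 *Snd1* KO MIN6 clones were used. The authors ran the Genialis platform on their paired-end reads. They deposited TPM per gene, for 53808 mouse genes and 92 ERCC spike-ins (at most 1.02 TPM, left out). The submitters' processing notes name FastQC, Trimmomatic, HISAT2, HTSeq, DESeq2 and the build mm10, and the gene lengths are not given in the sources used here. GENCODE M21 (GRCm38) matched 53706 identifiers. TPM multiplied by the summed exon length of all transcripts gave whole reads, within 0.01, in all clones for 91.7% of 14851 genes, and once the lengths of 1779 others, *Hs3st6* and *Ndst1* among them, had been searched, 100% of values above 0 were whole. Where a search found several lengths, the shortest was taken for genes above 0 in at least 4 clones. The depth covers counting error only.

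For the 17823 genes whose mean reached 0.5 TPM, log2(TPM + 1) was fitted in limma 3.58.1 under R 4.3.3 (lmFit and eBayes, trend on). p-values were adjusted by Benjamini-Hochberg, and a call needed an adjusted value under 0.05 and a 2-fold change. The p-values set the difference between the groups against the spread between clones. The members and lists were chosen with earlier results of these data known. Genes named are the 10 members, listed genes whose groups do not overlap with a change of at least 0.5 (log2), the 3 most abundant of each list, the 5 genes most like *Hs3st3b1*, its 3 neighbours on each side, *Snd1* and markers. *Robo2*, whose change is smaller, and *Ndst2* and *Hs6st3*, given for the composition of their families, were chosen after their values were seen. Some genes that the rule names are not reported here. Alternatives were a pseudocount of 0.1, no filter or one at 5 TPM, quantile normalization, median ratio scaling, clone quality weights, a replicate block, voom on recovered reads, no minimum fold change, other gene lengths, and each clone left out. Counts of separate groups without Control 3 or *Snd1* KO 1 were added after the data were seen. Python 3.11.15, numpy 2.4.6, pandas 2.3.3 and matplotlib 3.10.9 were used.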

Additional observations from a re-analysis of the deposited data

How the results depend on the processing

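The log2 fold change of *Hs3st3b1* was 1.95, and its sign is fixed by how the gene was chosen. It was 2.41 with a pseudocount of 0.1, 2.44 with voom on the recovered reads and 1.54 with clone quality weights, and with 1 clone left out it lay between 1.83 and 2.20. Over all genes 1 was called, and 0 were called without a filter, with the replicate block and with voom, 0 to 1 with 1 clone left out (1 without *Snd1* KO 2 and 0 without each of the others), and 895 with clone quality weights (5.02% of genes tested, weights from 0.279 for Control 3 to 3.91 for *Snd1* KO 3). Of the 74 pathway genes 0 were called, and 2 with clone quality weights, *Fgf9* and *Fgf1* (adjusted p = 0.0179 and 0.0226, limma). The lowest adjusted p of any pathway gene over the other alternatives lay between 0.095, without Control 3, and 0.983, without Control 2. For the other members, all 82 alternative values moved by less than the SD between clones. The replicate block left each fold change as it was, since every number occurs once in each group. Clones of the same number share only a number (correlations of deviations 0.051, −0.12 and −0.074). The causes of these changes were not tested. With the lengths behind the deposited TPM, 6 of 10 members kept their place in the order of Control levels. Reads limit *Hs3st3a1*, *Hs3st4* and *Hs6st2*, whose levels were not detectable at this depth.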
